A study of Rattus norvegicus with 10 samples.

Results

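The 10 genes described here encode the classical complement pathway in rat: the C1q chains C1qa, C1qb and C1qc, the proteases C1r and C1s, the components C2, C3, C4a and the C4-like gene LOC103689965, and Serping1, the C1 inhibitor. They were taken from a fixed list of symbols, and all 10 were among the 14166 genes of the bulk table and the 25399 genes of the nucleus matrices. The tissue was the dentate gyrus on the injured side of young adult male Sprague Dawley rats. TBI rats received a moderate lateral fluid percussion injury through a craniectomy, sham rats had the same surgery without the pressure pulse, and the naïve rat had no surgery. Tissue from 3 sham and 3 TBI rats was taken 3 weeks after the injury or sham procedure for bulk RNA-seq, and nuclei were isolated from 2 TBI rats, 1 sham rat and 1 naïve rat, with 1 library per rat throughout, so p-values measure the spread between rats. The labels give no time point for the naïve rat.

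The classical pathway begins when the C1 complex, made of C1q with the proteases C1r and C1s, binds a target such as an antibody or a tagged synapse. C1s then cuts C4 and C2, their fragments form the convertase that cuts C3, and the C1 inhibitor removes C1r and C1s from the complex. In brain, microglia are known as the main source of C1q, and astrocytes are known to make several of the other components.

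Bulk libraries held 25121893 to 44649404 estimated counts, and nucleus libraries held 11285 to 16931 nuclei after filtering with 1647 to 2652 median UMIs (molecules counted by barcode). No genes passed an FDR of 0.01 by edgeR in bulk, and 1360 had an unadjusted p under 0.05, against 169 that passed by DESeq2. In the nuclei, a variable part of the stored matrix entries had the value 0, from 1.63% in TBI replicate 1 to 27.4% in TBI replicate 2, and these were read as 0. Libraries of different rats shared 45 to 60 barcodes, at most 0.452% of the smaller one. The naïve rat stood apart for C1q, as shown with the nuclei, and the nucleus contrasts of the C1q chains, C3, LOC103689965, Serping1, C1r and C1s are given with and without it. Sham replicate 2 held the highest oligodendrocyte marker sum in bulk, 16745 CPM against 4944 to 7715 CPM in the other libraries. Markers of the labelled tissue were present in bulk, with a summed level of 2018 to 3032 CPM for 6 glutamatergic neuron markers that include the granule neuron gene Prox1.

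All 10 genes were higher in TBI than in sham bulk tissue, and in each of them the lowest TBI library lay above the highest sham library. Over all genes, 11.7% had TBI libraries that were all above the sham libraries, and 8.2% were higher with an edgeR p under 0.05, as were 10 of the 10 genes here. None of the 10 passed an FDR of 0.01 by edgeR's quasi-likelihood test, where the share over all genes was 0%. Under DESeq2, 9 of them passed, all but C3, where 1.17% of all genes passed in the same direction. With DESeq2's p-values adjusted only over genes under an unadjusted 0.05, 9 again passed, where 3.26% of all genes did. A Log2FC of at least 1 was reached by 10 of the 10 genes and by 4.44% of all genes in this direction. The median Log2FC was 1.68 for the 10 genes and −0.00 for all genes. The 10 genes were chosen with earlier results of these data known. The paper names LOC103689965, Serping1 and C4a as its top genes in these same bulk libraries. The shares over all genes are thus given for scale and are no test of the 10 genes as a set. In bulk tissue, fewer cells of a type and less RNA per cell cannot be told apart, and the same holds for more of either.

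C1qa (Entrez 298566) encodes the A chain of C1q, the part of C1 that recognises the target. Its RefSeq promoter window, from 250 bases before to 50 bases after the gene start on the minus strand of GRCr8 at chr5:154419884-154420183, is shown because it was the only one of the windows searched with a match to a motif. The capitals mark the match to TTCNNNGAA, the core that STAT factors are known to bind, which begins at position −90 relative to the start.
C1qa: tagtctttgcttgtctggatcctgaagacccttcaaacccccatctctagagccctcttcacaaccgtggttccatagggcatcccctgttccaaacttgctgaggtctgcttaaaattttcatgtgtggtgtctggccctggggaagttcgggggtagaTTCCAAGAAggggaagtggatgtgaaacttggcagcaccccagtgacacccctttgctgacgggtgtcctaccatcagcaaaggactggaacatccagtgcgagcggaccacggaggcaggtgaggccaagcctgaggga
The windows of C1qa, C1qb, C1r, C3, C4a and the third C4 copy C4b were in the table, and those of C1qc, C1s, C2, Serping1 and LOC103689965 were not used here. On both strands, TTCNNNGAA occurred in 8.87% of 33469 promoter windows, GAAANNGAA, a core of interferon-stimulated elements, in 9.71%, and GAGGAAG, a core of PU.1 sites, in 12.4%. C1qa had no match to the second or the third of these motifs, and no match in a window says only that these letters are not in it.

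C1qa stood at 66.1, 53.5 and 68.7 CPM in the 3 sham libraries and at 122.9, 238 and 120.0 CPM in the 3 TBI libraries. TBI replicate 2 was the highest, and the other TBI libraries were close to each other and 1.75-fold or more above the highest sham library. The edgeR Log2FC was 1.32 with a standard error of 0.28 (FDR = 0.196).

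C1qb (Entrez 29687), the B chain, stood at 43.5, 35.04 and 38.4 CPM in sham and at 77.7, 144 and 79.4 CPM in TBI. C1qc (Entrez 362634), the C chain, stood at 27.7, 20.01 and 24.8 CPM in sham and at 42.5, 75.2 and 50.9 CPM in TBI. Both chains had their highest value in TBI replicate 2, as C1qa did, and the groups did not overlap. The edgeR Log2FC was 1.33 with a standard error of 0.25 for C1qb and 1.18 with a standard error of 0.23 for C1qc. The 3 chains moved together over the 6 libraries, with Pearson r of log2 CPM between 0.98 and 0.99 in their 3 pairs, a description over libraries that also differ by group.

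C1r (Entrez 312705), the protease that activates C1s, stood at 19.1, 16.6 and 14.1 CPM in sham and at 25.3, 38.6 and 51.9 CPM in TBI. It was the only one of the 10 genes whose highest TBI library was TBI replicate 3, and its lowest TBI library was 1.33-fold above the highest sham library. C1s (Entrez 192262), which cuts C4 and C2, stood at 9.54, 9.92 and 8.53 CPM in sham and at 17.8, 33.8 and 30.3 CPM in TBI. The sham libraries of C1s were closely spaced, with a coefficient of variation of 7.72%, against 30.8% in TBI. The edgeR Log2FC was 1.18 with a standard error of 0.25 for C1r and 1.51 with a standard error of 0.24 for C1s.

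C2 (Entrez 24231), which supplies the catalytic part of the convertase, stood at 11.6, 11.6 and 9.41 CPM in sham and at 27.3, 61.7 and 38.5 CPM in TBI. All TBI libraries were at least 2.34-fold above the highest sham library, and the edgeR Log2FC was 1.93 with a standard error of 0.29. C3 (Entrez 24232), on which all complement pathways meet, stood at 20.9, 93.5 and 43.0 CPM in sham and at 139, 325 and 118 CPM in TBI. Its sham libraries spread with a coefficient of variation of 70.9%, the widest of the 10 genes, and the gap between the groups was the narrowest, with the lowest TBI library 1.26-fold above the highest sham library. The edgeR Log2FC of C3 was 1.85 with a standard error of 0.60 (FDR = 0.355). Without sham replicate 2, its highest control, the Log2FC was 2.56, and without TBI replicate 2 it was 1.22. C3 was the gene that DESeq2 did not call (FDR = 0.281).

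C4a and C4b lie on the same chromosome, and the estimated counts of near-identical copies are uncertain because the mapping can divide their reads. The RefSeq promoter windows of C4a at chr20:4010107-4010406 and of C4b at chr20:4201729-4202028, both on the plus strand of GRCr8, are shown to make this likeness visible. They were identical in 93.6% of 295 aligned columns, and the capitals mark their longest shared run of 125 bases, which spans the gene start. Neither window had a match to the 3 motifs.
C4a: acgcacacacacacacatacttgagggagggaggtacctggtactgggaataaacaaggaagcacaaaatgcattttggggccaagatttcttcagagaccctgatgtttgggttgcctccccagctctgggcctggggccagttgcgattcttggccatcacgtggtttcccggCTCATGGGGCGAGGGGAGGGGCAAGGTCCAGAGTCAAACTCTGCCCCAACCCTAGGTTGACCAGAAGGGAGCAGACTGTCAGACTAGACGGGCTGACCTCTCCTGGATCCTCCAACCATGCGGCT
C4b: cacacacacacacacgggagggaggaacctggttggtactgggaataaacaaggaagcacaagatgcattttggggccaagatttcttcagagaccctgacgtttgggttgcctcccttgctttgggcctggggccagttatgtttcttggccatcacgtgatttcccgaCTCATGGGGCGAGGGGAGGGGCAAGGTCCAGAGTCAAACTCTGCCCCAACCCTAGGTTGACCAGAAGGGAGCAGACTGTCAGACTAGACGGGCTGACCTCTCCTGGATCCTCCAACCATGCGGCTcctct

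C4a (Entrez 24233) stood at 5.82, 3.73 and 4.62 CPM in sham and at 12.7, 25.9 and 22.5 CPM in TBI. LOC103689965 stood at 24.4, 26.1 and 19.9 CPM in sham and at 75.4, 189 and 140.1 CPM in TBI. In both genes TBI replicate 1 was the lowest of the injured rats and still at least 2.18-fold above every sham library. C4b (Entrez 406161), the third copy, stood at 1.57, 1.65 and 1.73 CPM in sham and at 2.18, 4.61 and 9.54 CPM in TBI, with a fitted Log2FC of 1.69 (standard error 0.50). LOC103689965 took 75.9% to 86.1% of the CPM of the 3 copies in every library, C4a took 11.8% to 18.3% and C4b took 2.09% to 6.54%. The summed level, which does not depend on how reads were divided between the copies, was 31.8, 31.5 and 26.3 CPM in sham and 90.3, 219 and 172 CPM in TBI. Tested as 1 gene, an alternative added after the data were seen, the sum had a Log2FC of 2.39 (standard error 0.31, edgeR FDR = 0.198).

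Transcript values showed where these gene values came from. The values of C1qa, C1qb, C1qc, C1r, C2, Serping1 and C4b each equalled 1 deposited transcript, and those of C1s, C3, C4a and LOC103689965 equalled the sum of 2. The smaller transcript held at most 1.83% of C1s and 0.25% of C3. It held 33.0% to 41.9% of LOC103689965 and 1.84% to 22.7% of C4a over the 6 libraries.

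Serping1 (Entrez 295703), which encodes the inhibitor of C1r and C1s, stood at 4.55, 12.2 and 5.25 CPM in sham and at 34.7, 92.1 and 52.9 CPM in TBI. Sham replicate 2 was the highest control for Serping1 as it was for C3, and the lowest TBI library was still 2.85-fold above it. Its Log2FC of 3.00 (standard error 0.49) was the largest of the 10 genes by edgeR.

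**Figure D1:**
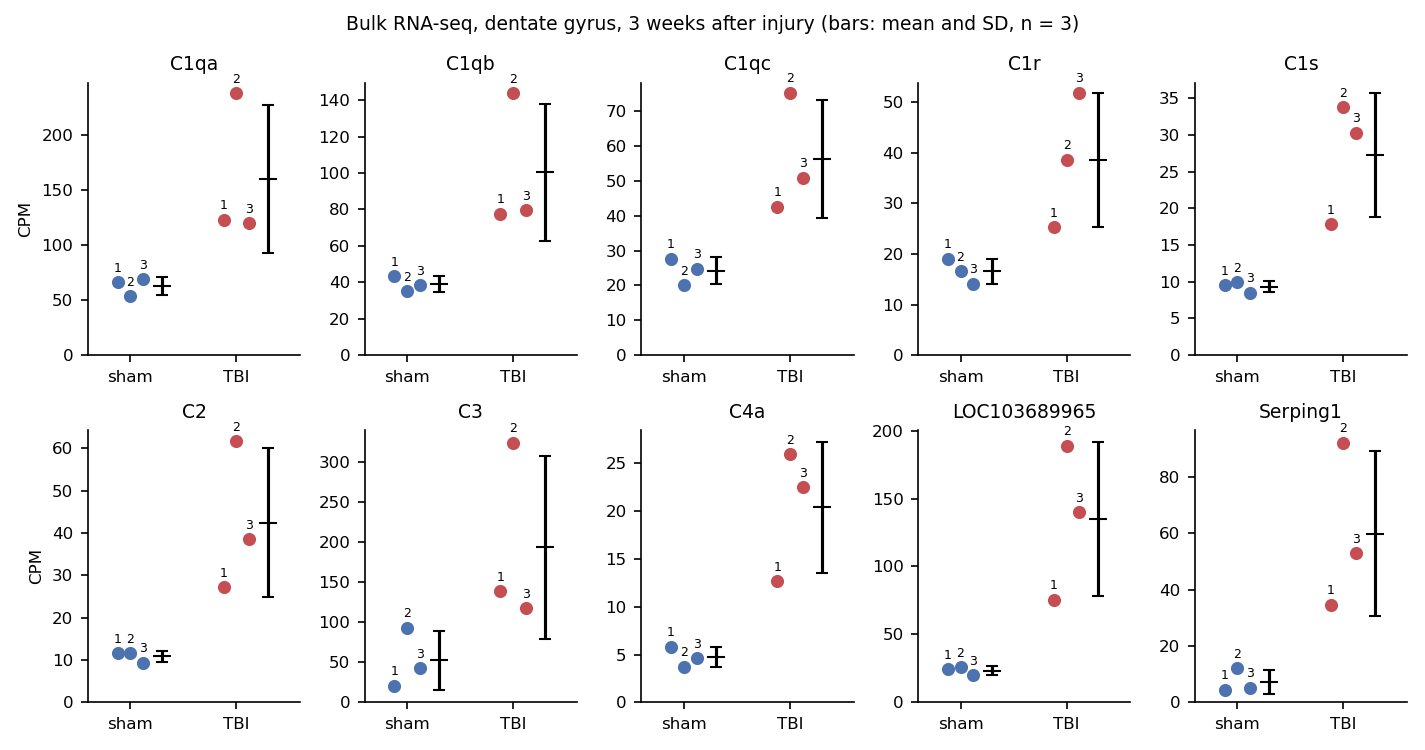
Bulk levels of the 10 genes in CPM (linear axes that start at 0, 1 panel per gene), with 1 point per library numbered by replicate and bars for the mean and SD of 3 sham (blue) and 3 TBI (red) rats. Every TBI point lies above every sham point in each panel, and TBI replicate 2 is the highest point in 9 of the 10 panels.

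The recorded date of injury fell in spring for sham replicates 1 and 2 and TBI replicate 1, and in autumn for the other 3 rats. Within the periods, the log2 difference between TBI and sham was above 0 for 10 of 10 genes in both, between 0.51 for C1r and 2.22 for Serping1 in spring and between 1.30 for C1qa and 3.73 for Serping1 in autumn. It was larger in autumn for 10 of 10 genes, with 1 TBI rat in spring and 1 sham rat in autumn.

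Markers of several cell types were also higher in the same TBI libraries. The summed level of 10 microglial markers was 226 to 240 CPM in sham and 382 to 675 CPM in TBI, with 9 of 10 markers apart between the groups and a median Log2FC of 1.03. The summed level of 9 astrocyte markers was 4160 to 5049 CPM in sham and 7012 to 10062 CPM in TBI, with 7 of 9 apart and a median of 0.28. Perivascular macrophage markers summed to 16.4 to 20.04 CPM in sham and 28.9 to 78.4 CPM in TBI, with 5 of 6 apart. Pericyte and smooth muscle markers had 5 of 8 apart, at 134 to 155 CPM in sham and 182 to 718 CPM in TBI. Fibroblast markers had 3 of 7 apart, at 40.5 to 83.2 CPM in sham and 84.6 to 1027 CPM in TBI, and endothelial markers had 1 of 10 apart. TBI replicate 3, the library with the highest C1r, held the highest fibroblast sum (1027 CPM), pericyte and smooth muscle sum (718 CPM) and endothelial sum (585 CPM). TBI replicate 2, the highest library for the other 9 genes, held the highest microglial (675 CPM) and astrocyte (10062 CPM) sums. No listed marker in the bulk table was at 0 throughout the 6 libraries, and the part of each cell type in the bulk levels was not tested.

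Each gene was also set against the summed microglial markers of the same library. This ratio was taken for the 10 genes only, so the share of all genes without overlap in it is not known. The log2 ratio of Serping1 to the microglial sum was 2.04 higher in TBI, that of LOC103689965 1.42 higher, that of C4a 1.05 higher and that of C2 0.87 higher, with no overlap between the groups in any of them. The ratio of C1s was 0.48 higher, also with no overlap. For C1qa and C1qb the ratio was 0.27 and 0.29 higher with groups that just did not overlap, and the nearest C1qa values were −1.75 in TBI replicate 3 and −1.76 in sham replicate 3. For C1qc (0.17), C1r (0.15) and C3 (0.98) the groups overlapped. The exact permutation test gave p = 0.1 two-sided for each of the 7 genes without overlap, the smallest p that 3 rats against 3 allow, so none could pass 0.05. The same exact test gave p = 0.4 for C1qc, p = 0.9 for C1r and p = 0.3 for C3, and the C1r difference was −0.20 without TBI replicate 3.

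**Figure D2:**
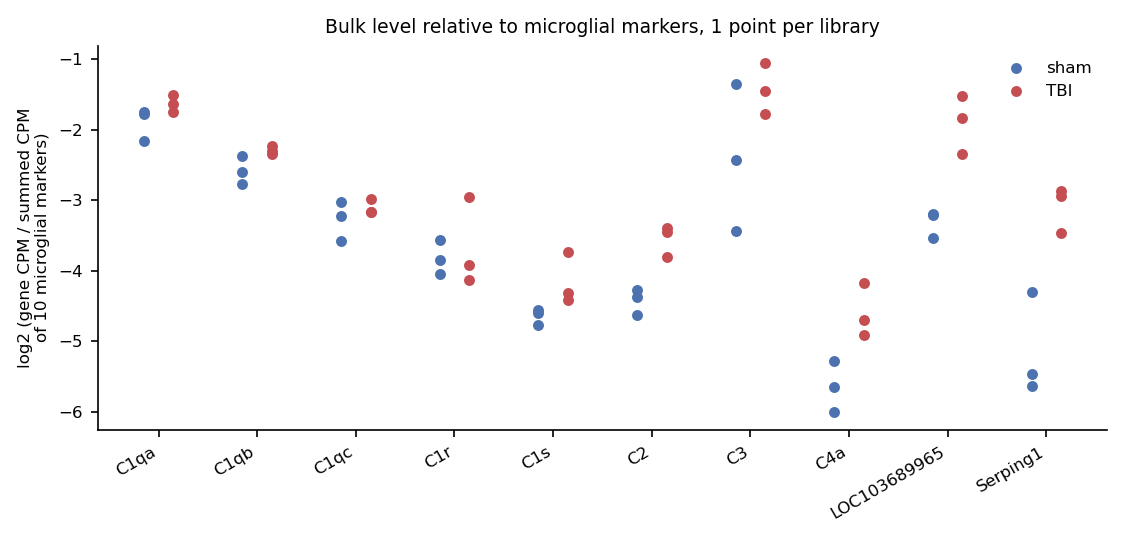
Log2 of each gene's CPM over the summed CPM of 10 microglial markers in the same bulk library, with 1 point for each of 3 sham (blue) and 3 TBI (red) libraries. The groups are clearly apart for C2, C4a, LOC103689965 and Serping1, almost touch for C1qa and overlap for C1qc, C1r and C3.

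For each of the 10 genes, the 3 nearest genes over the 6 libraries were listed by Pearson r of log2 CPM. This measure includes the difference between the groups. The nearest genes were picked for the highest r over few libraries, so high values can arise by selection alone. Whether the 10 genes differ in their nearest genes was not tested. The genes most like C1qa were Ly86 (r = 0.997), Nek6 (r = 0.995) and C1qb (r = 0.993). Those most like C1qb were Sting1, Wdr81 and Epsti1 (each r = 0.995), and those most like C1qc were F10 (r = 0.999), Sla (r = 0.998) and the microglial marker Aif1 (r = 0.997). C1s and LOC103689965 were among the 3 nearest genes of each other (r = 0.997), and Ssc5d was the nearest to both (r = 0.999 and r = 0.998). For C2 they were Tcf3 (r = 0.9997), Cyba (r = 0.998), a subunit of the phagocyte oxidase, and Ccdc102a (r = 0.996). For C3 they were Cd180 (r = 0.998), Itgal (r = 0.997) and Dennd2c (r = 0.994). For C4a they were Slc12a9 (r = 0.999), Cd63 (r = 0.999) and Gstk1 (r = 0.995), for Serping1 the lipid droplet gene Plin2 (r = 0.999), Fmo4 (r = 0.997) and Fes (r = 0.997), and for C1r Pxn, Ifi44l and the interferon receptor gene Ifnar1 (r = 0.997, 0.997 and 0.996). Among the 10 genes themselves, C3 had an r of 0.73 to 0.80 to the C1q chains, and its r to the remaining 6 ran from 0.64 for C1r to 0.93 for Serping1.

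Of the rest of the complement system, 11 of 18 listed genes of the lectin, alternative and terminal pathways were in the bulk table, 9 of them higher in TBI, with a median Log2FC of 0.88 and 5 with an edgeR p under 0.05. The groups were apart for Fcna (1.71), Colec11 (0.88), Cfb (0.99) and Cfd (2.76), where the values are the Log2FC. Fcna and Colec11 encode recognition proteins of the lectin pathway, and Cfb and Cfd, factors B and D, encode proteases of the alternative pathway. Masp1 and Masp2, the lectin pathway counterparts of C1r and C1s, had a Log2FC of 0.12 and 0.07 with overlapping groups. Of 9 receptors, 4 were present and 2 were apart, Itgb2 (1.39), the beta chain of complement receptor 3, and C5ar2 (1.14). Among the regulators, Clu (0.70) and Vtn (1.74) were apart. None of the genes of these lists passed an FDR of 0.01 by edgeR. In the first 2 lists 5 of 11 and 2 of 4 had an edgeR p under 0.05, all higher in TBI. Over all genes, 8.2% were higher with an edgeR p under 0.05, and 11.7% had all TBI libraries above all sham libraries.

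In the nuclei, clusters were built without the 10 genes and named only from markers. Clusters 6 and 17 were microglia-like (3153 nuclei, led by Inpp5d, Ikzf1 and Bin2), cluster 4 was astrocyte-like (5077 nuclei, led by Grin2c and Gfap) and cluster 19 was endothelial-like (434 nuclei, led by Cldn5 and Flt1). Clusters 0 to 3, with 29337 nuclei and 53.5% of all UMIs, were led by Plk5, Niban3, Ror2 and Robo3 and stayed unnamed, as did cluster 21, with 138 nuclei led by Slc6a20, Atp13a5 and Slc6a13. Cluster 6, the larger microglia-like cluster, was shallow, with a median of 681 UMIs. The shares below are descriptions, since the classes come from the same nuclei.

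Microglia-like nuclei held 2.77% of all UMIs and larger shares of those of C1q, C2 and C3. It carried 56.9% ± 12.8 of the C1qa UMIs, 48.4% ± 14.9 of C1qb and 52.7% ± 15.5 of C1qc (mean ± SD, n = 4 rats), from 1625, 1413 and 520 UMIs in all. It carried 44.7% ± 14.7 of 222 C3 UMIs and 68.6% ± 16.8 of C2, which rests on 19 of only 26 UMIs. With at least 1000 UMIs per nucleus in place of 500, the microglia-like share was 28.8% for C1qa, 19.9% for C1qb, 24.9% for C1qc, 18.4% for C3 and 10.0% for C2. This threshold lies above the median of 681 UMIs in cluster 6, so most nuclei of that cluster were left out. With a marker gate in place of clusters, the share was 21.7% to 42.4% over these genes.

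C1r, C1s and Serping1 were spread differently. Clusters 0 to 3, with 53.5% of all UMIs, carried 46.7% ± 10.4 of the C1r UMIs, 31.0% of C1s and 23.3% of Serping1. Astrocyte-like nuclei, with 12.7% of the UMIs, carried 38.6% ± 11.9 of 212 C1s UMIs, 35.7% ± 16.3 of 109 Serping1 UMIs and 24.98% ± 5.79 of 814 C1r UMIs, while microglia-like nuclei carried 0.900%, 3.09% and 1.08%. C1r per UMI was highest among the named classes in endothelial-like nuclei, at 20.3 ± 8.86 CPM, against 12.05 ± 2.34 CPM in astrocyte-like nuclei and 5.48 ± 1.64 CPM in clusters 0 to 3 (SD, n = 4 rats). The endothelial-like value of C1r rests on 22 UMIs. Serping1 per UMI was 7.23 ± 7.37 CPM in endothelial-like nuclei (7 UMIs) against 2.91 ± 2.64 CPM in astrocyte-like nuclei. In cluster 21 it was 29.5 ± 30.4 CPM, from 5 UMIs.

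LOC103689965 had the most UMIs of the 10 genes, 2002, and showed little preference between the large classes. Clusters 0 to 3 carried 56.6% ± 3.44 of them, close to their 53.5% share of all UMIs, and astrocyte-like nuclei carried 13.01% ± 1.54, close to their 12.7%. Its level was 14.6 to 19.3 CPM over the 4 rats in clusters 0 to 3 and 14.2 to 17.1 CPM in astrocyte-like nuclei. In the small cluster 21 it was 71.3 to 110 CPM, from 14 UMIs, and in endothelial-like nuclei it was 11.3 to 41.6 CPM. C4a and C4b had 5 UMIs each in all nuclei together, too few to place in any class, against 2002 for LOC103689965. In bulk, C4a took 11.8% to 18.3% of the CPM of the 3 copies, so its share differed between bulk and nuclei. How reads of these like copies were assigned in the nuclei was not tested. The class shares of LOC103689965 carry this limit.

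**Figure D3:**
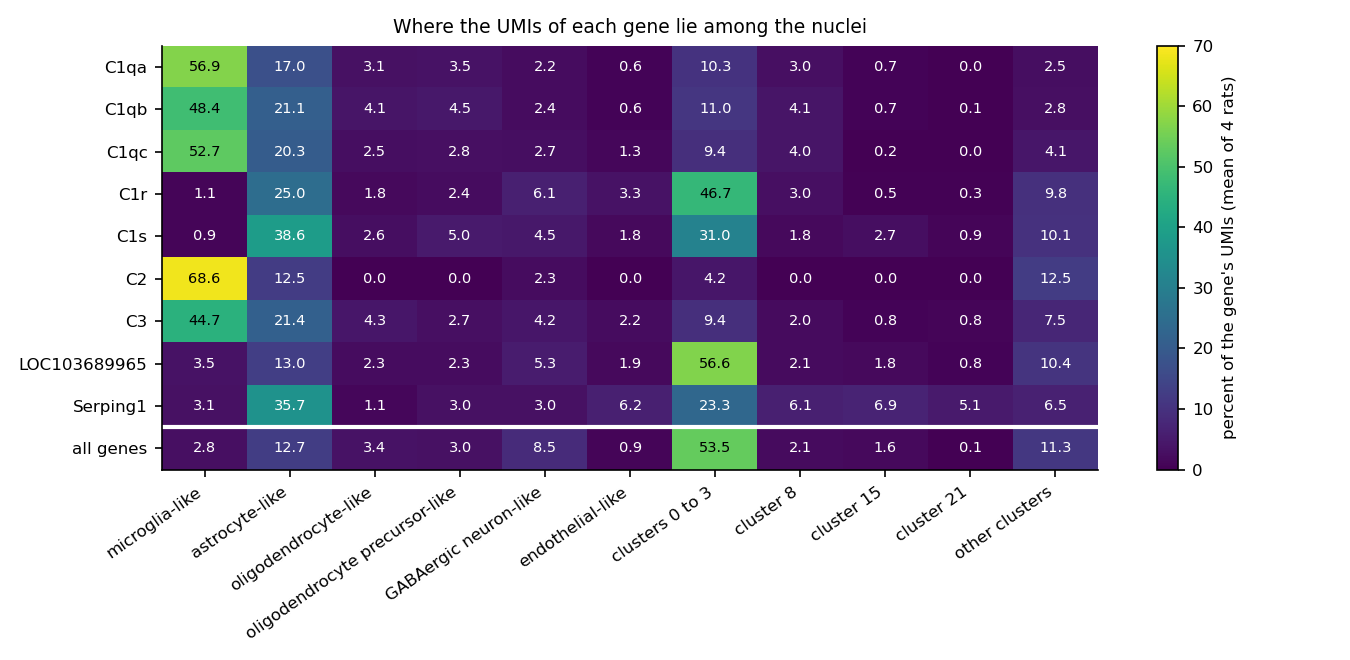
Percent of each gene's UMIs that lay in each class or group of clusters (columns), as the mean of 4 rats, for 9 genes (C4a is left out for its 5 UMIs) and for all genes (bottom row). The C1q chains, C2 and C3 are brightest under microglia-like nuclei, C1s and Serping1 under astrocyte-like nuclei, and the row of LOC103689965 is close to that of all genes.

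Within microglia-like nuclei, C1qa stood at 158 and 214 CPM in the TBI rats, 142 CPM in the sham rat and 885 CPM in the naïve rat. C1qb stood at 98.1 and 193 CPM in TBI, 78.0 CPM in sham and 699 CPM in naïve, and C1qc at 47.9 and 56.9 CPM, 40.6 CPM and 264 CPM. The naïve rat was far above the other 3 for all 3 chains, and the sham rat was the lowest for all 3. The naïve rat was also the highest for LOC103689965 in this class, at 68.6 CPM against 8.70 to 18.5 CPM, and for the summed microglial markers, at 5297 CPM against 2926 to 3529 CPM. Per 100 UMIs of microglial markers, the class held 10.4 and 13.1 C1q UMIs in TBI, 8.73 in sham and 34.9 in naïve. The single markers differed widely. The naïve CPM over the sham CPM ran from 1.15 for Apbb1ip to 6.95 for P2ry12, the latter from 18 and 3 UMIs. It was 4.36 for Aif1, so a large excess in the naïve rat was not particular to C1q.

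The edgeR Log2FC of TBI against both controls in microglia-like nuclei was −1.49 for C1qa with a standard error of 0.67, −1.43 for C1qb and −1.55 for C1qc (FDR = 0.99999 for each), and in none of the 5 genes tested there were both TBI rats above or both below the controls, where 18.9% and 11.7% of all genes were. Without the naïve rat these values turned to 0.35, 0.87 and 0.33 (FDR = 0.992), and without the sham rat they were −2.27, −2.26 and −2.34 (FDR = 0.00116, 0.00399 and 0.00338). The fit without the sham rat set the TBI rats against the naïve rat alone, whose spread was taken to be that of the TBI rats, so these values compare that 1 rat with the TBI rats. No genes passed an FDR of 0.01 by edgeR with all 4 rats, where 212 of 9163 (2.31%) had a p under 0.05 and DESeq2 also called 0, and the share called over all genes was 0%. Without the filter on low counts edgeR called 15 genes, among them the 3 C1q chains.

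C1q UMIs were found in 31.0% and 33.3% of microglia-like nuclei in the TBI rats, 21.6% in sham and 82.1% in naïve, at median depths of 634 to 817 UMIs. In GABAergic neuron-like nuclei, which had median depths of 2057 to 3495 UMIs, the share was 2.52% and 1.59% in TBI, 0.974% in sham and 1.51% in naïve. In clusters 0 to 3 it was 2.38% and 0.186% in TBI, 0.735% in sham and 0.138% in naïve, so the higher share in microglia-like nuclei was present at lower depth. UMIs of all 3 chains occurred together in 51 of the 435 naïve nuclei and in 5 of 1325 in TBI replicate 2. They occurred together in 0 of 739 nuclei in TBI replicate 1 and 0 of 654 in sham, which allows shares of up to 0.406% and 0.459% (3 counts over the number of nuclei). These limits are on nuclei with UMIs of all 3 chains at this shallow depth, not on nuclei that express them. Thinned to 500 UMIs per nucleus, C1qa was found in 9.20% and 13.1% of microglia-like nuclei in TBI, 7.80% in sham and 46.7% in naïve, against 12.2% in sham and 61.6% in naïve before thinning.

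**Figure D4:**
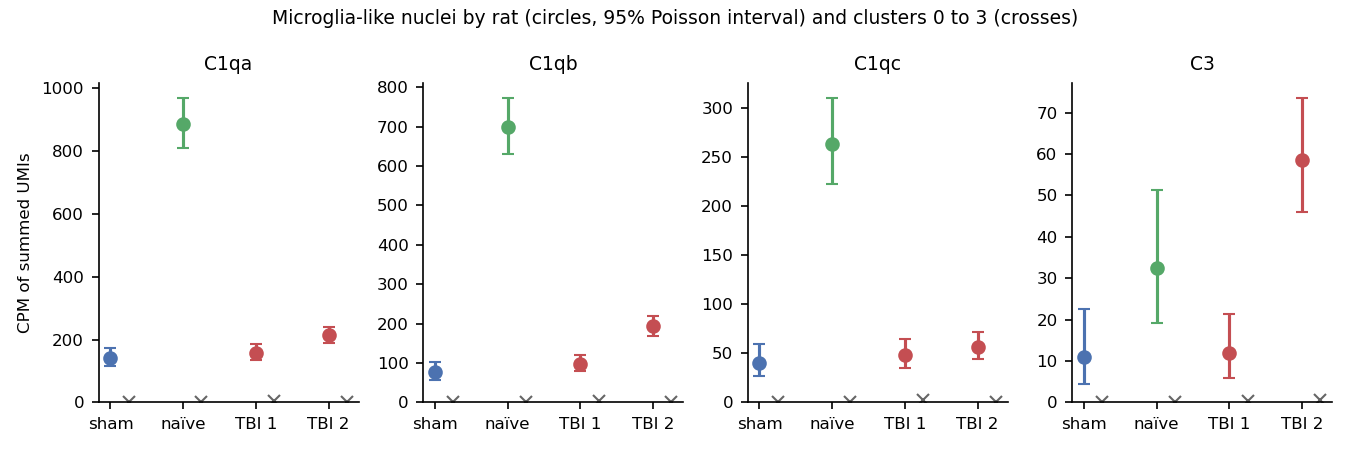
CPM of C1qa, C1qb, C1qc and C3 in the microglia-like nuclei of each rat (circles, with 95% Poisson intervals that cover counting error only) and in clusters 0 to 3 (crosses), on linear axes that start at 0. The naïve rat is the highest for the 3 C1q chains, TBI replicate 2 is the highest for C3, and the crosses lie near 0.

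C3 did not follow C1q. In microglia-like nuclei it stood at 11.98 and 58.5 CPM in the TBI rats, 10.9 CPM in sham and 32.5 CPM in naïve, from 11, 74, 7 and 18 UMIs. The high value of TBI replicate 2 came from 71 different nuclei, none with over 2 C3 UMIs, and 39.4% of them also had a C1q UMI. C3 was also highest in TBI replicate 2 in astrocyte-like nuclei, at 8.58 CPM against 0.483 to 2.02 CPM. Over all nuclei it was the only one of the 8 genes tested that was higher in both TBI rats than in both controls, at 0.954 and 5.25 CPM against 0.680 and 0.862 CPM, where 23.8% of all genes were. Its Log2FC there was 1.93 with a standard error of 0.78 (FDR = 0.982 in the edgeR fit), 0.22 without TBI replicate 2, 2.12 without the naïve rat and 2.70 without TBI replicate 1 (FDR = 0.00629). This last fit had TBI replicate 2, the highest library for C3, as its only TBI rat, so the spread within TBI was not measured in it. Within microglia-like nuclei the Log2FC of C3 was 0.72 with all rats (FDR = 0.99999) and 1.68 without the naïve rat (FDR = 0.992).

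Astrocyte-like nuclei also held C1q UMIs, 17.04% of those of C1qa, and these nuclei were deeper than the rest of the class. Nuclei with a C1q UMI made up 9.28% and 10.8% of the class in TBI, 3.75% in sham and 16.9% in naïve. Of all 444 such nuclei, 64.9% had a microglial marker UMI as well, against 17.7% of the others, and their median depth was 3684 UMIs against 1632. Per 100 microglial marker UMIs the class held 18.7 and 16.2 C1q UMIs in TBI, 13.4 in sham and 38.6 in naïve, highest in the naïve rat and lowest in the sham rat as in microglia-like nuclei. Doublets were not removed, and whether 2 nuclei shared these droplets was not tested.

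In astrocyte-like nuclei, 7 of the 10 genes could be tested, and none passed an FDR of 0.01 by edgeR, where 0% of all genes did and 1553 of 12593 (12.3%) had a p under 0.05 (DESeq2 called 105 genes and gave the 7 no adjusted p). Serping1 stood at 1.69 and 6.60 CPM in TBI, 0.505 CPM in sham and 2.85 CPM in naïve, from 7, 20, 2 and 15 UMIs (Log2FC 1.11 with a standard error of 0.91, and −0.14 without TBI replicate 2). C1s stood at 4.10 and 5.94 CPM in TBI, 4.54 CPM in sham and 4.94 CPM in naïve, so the TBI rats lay on both sides of the controls. C1r, at 9.17 and 11.2 CPM in TBI against 13.4 and 14.4 CPM, was the only one lower in both TBI rats, where 17.7% of all genes were, and its Log2FC was −0.52 (standard error 0.31, FDR = 0.561). Without the naïve rat the Log2FC in astrocyte-like nuclei was 2.86 for Serping1 (FDR = 0.725), 0.07 for C1s and −0.46 for C1r. For C1qa, C1qb and C1qc it was −0.79, −0.40 and −0.40 with all rats and 0.36, 1.12 and 0.44 without the naïve rat, so the direction turned with that rat here too.

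The change after injury in bulk tissue was then set against that over all nuclei. The C1q chains, with a bulk Log2FC of 1.18 to 1.33, had −0.10, 0.08 and −0.07 in nuclei for C1qa, C1qb and C1qc, and 1.12, 1.497 and 1.27 without the naïve rat (FDR = 0.9996 for each by edgeR). For these 3 genes the nuclei thus ran with the bulk tissue against the only sham rat, and not with the naïve rat among the controls. The change over all nuclei includes the share of microglia-like nuclei. That share was 5.91% and 9.20% in the TBI rats, 3.86% in sham and 3.85% in naïve. Within microglia-like nuclei the Log2FC without the naïve rat was 0.35, 0.87 and 0.33. LOC103689965, with a Log2FC of 2.49 in bulk, stood at 14.3 and 13.9 CPM in the TBI nuclei against 14.5 CPM in sham and 19.1 CPM in naïve. Its Log2FC in nuclei was −0.32 with a standard error of 0.25, and −0.09 without the naïve rat, so it lay near 0 in both forms, and it was the only one of the 8 genes that was lower in both TBI rats than in both controls, where 9.85% of all genes were. The change of LOC103689965 in nuclei can depend on how reads of the C4 copies were assigned there, which was not tested. C1r was −0.30 with all rats and −0.14 without the naïve rat, C1s was 0.26 and 0.16, and Serping1 was 0.91 and 1.62.

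The difference between the bulk and the nucleus change was taken on log2(CPM + 0.5). Its p came from an exact two-sided permutation test that permutes group labels within each data set (120 arrangements). Such permutation stands for no change in either data set. A small p can thus come from the bulk change alone and cannot show that the changes differ. This scale understates the change of low genes. On it, the bulk change exceeded that in nuclei by 2.63 for LOC103689965 (exact p = 0.0167), 2.37 for Serping1 (p = 0.117) and 1.37 for C1r (p = 0.0333). For C4a the difference was 1.99 (exact p = 0.05). With 5 C4a UMIs in all nuclei, its nucleus values were set by the added 0.5, so bulk and nuclei could not be compared for it. C2, with 26 UMIs in all nuclei, was limited in a like way. For C1qa, C1qb and C1qc the difference was 1.08, 0.93 and 0.92 (exact p = 0.317, 0.467 and 0.367), and 0.20, −0.06 and 0.06 without the naïve rat. For C1s, C2 and C3 it was 1.24, 1.504 and 0.79 (exact p = 0.117, 0.1 and 0.667). Without the naïve rat it was 2.44 for LOC103689965, 2.06 for Serping1, 1.95 for C4a, 1.40 for C2, 1.33 for C1s, 1.24 for C1r and 0.69 for C3. Adjusted over the 10 comparisons with all rats, the smallest value was 0.167 (Benjamini-Hochberg), so no difference between bulk and nuclei passed 0.05. Bulk libraries count reads over whole polyadenylated transcripts, and nucleus libraries count molecules at the 3′ end of nuclear RNA with introns.

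**Figure D5:**
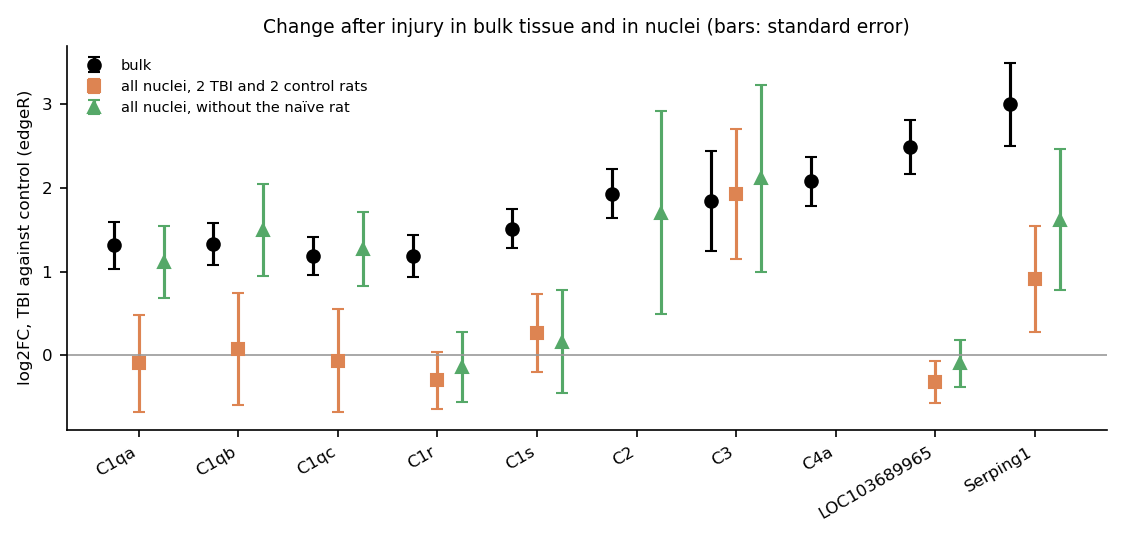
edgeR Log2FC of TBI against control with its standard error in bulk tissue (black circles, 3 against 3 rats), in all nuclei (orange squares, 2 TBI against 1 sham and 1 naïve rat) and in all nuclei without the naïve rat (green triangles). The C1q chains move from near 0 to above 1 when the naïve rat is left out, while LOC103689965 and C1r stay near 0 or below in the nuclei; under the filter on low counts C4a has no value in nuclei, and C2 has none with all 4 rats.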

How the data were processed

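Bulk reads were quantified by the authors with kallisto, and the unnormalized estimated counts of 31715 transcripts were deposited. A second table deposited by the authors holds log2 CPM for 14166 genes, made after filters on annotation, low totals and low variance. Gene counts were worked back from the log2 values and rounded, in place of planned sums of transcripts, and 10101 genes equalled 1 transcript within 0.01 counts. The RefSeq table named 13778 gene IDs. For snRNA-seq, the authors deposited UMI counts from Cell Ranger over exons and introns on Rnor_6.0. The sources used here do not say how stored entries of value 0 arose.

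The study's filters (at least 500 UMIs, 300 features and 0.8 log10 genes per UMI, at most 5% mitochondrial and 2% ribosomal UMIs) left 55124 of 55863 nuclei, 1 more than the study gives. Seurat 5.3.0 clustered them on 1999 variable features (2000 less 1 of the 10 genes), 25 components, CCA integration and a resolution of 0.6. A cluster was named where at least 3 markers led it by 0.5 over the next class. Cluster 21 was an exception and stayed unnamed, with scores of 4.83 for fibroblast and 4.29 for pericyte and smooth muscle markers. Its 10 leading genes held 1 marker of the first class and 2 of other classes. Names can differ from the study's, whose annotation was not used here. Doublets were kept. CPM per class used summed UMIs, and intervals and floors (3 counts) cover counting error only.

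The main test was the quasi-likelihood test of edgeR 4.0.16, with TMM normalization and Benjamini-Hochberg adjustment over all genes, on counts per library or UMI sums per rat. DESeq2 1.42.0, limma 3.58.1, other normalization, filters, gates and resolutions, and each library left out were alternatives. Bulk edgeR recovered 180 of 200 changed genes with 0 false calls in simulated data, and DESeq2 recovered 188 with 34 false calls. In simulated nucleus sums only genes with higher counts were changed. There edgeR recovered 183 of 200 for microglia-like nuclei (1 false call) and 151 of 200 over all nuclei (5 false calls). The raised genes had a median fitted Log2FC of 1.97 in bulk, 1.98 in microglia-like nuclei and 1.97 over all nuclei by edgeR. Recovery of smaller changes, or of genes with few UMIs, was not measured, and the rates hold for the simulated spread only. The 10 genes, the gene lists and the markers were chosen with earlier results of these data known. The genes named are the 10, C4b, other complement genes whose groups do not overlap (1 result is not reported here), and the 3 genes most like each member. Masp1, Masp2 and the leading genes of clusters were named after their values were seen. Work was done in Python 3.11.15 (scipy 1.17.1, matplotlib 3.10.9) and R 4.3.3.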

Additional observations from a re-analysis of the deposited data

Results flagged for a closer look

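Nucleus TBI replicate 2 stored more matrix entries of value 0 for several of the genes than either control did. They made up 46.3% of the C1qa entries in that library (highest control 34.4%), 43.7% for C1qb (30.7%), 56.0% for C1qc (34.5%), 45.2% for C1r (18.2%) and 45.0% for LOC103689965 (21.2%). In TBI replicate 1 the share was 3.58% for C1qa and 3.62% for LOC103689965. Over all genes, entries of value 0 made up 27.4% in TBI replicate 2, 11.1% in sham and 15.5% in naïve. The excess in TBI replicate 2 was thus not particular to the genes named here. C3 and C1s went the other way against the naïve rat, at 26.1% and 32.3% in TBI replicate 2 and 30.8% and 39.2% in naïve. These entries are outside the counts, and what they stand for was not tested.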

How the results depend on the processing

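In bulk, the 10 genes were higher in TBI under every alternative run, with a Log2FC of 0.89 to 3.57 over 130 values. edgeR called 0 genes and 0 members with each library left out, DESeq2 called 169 and 9, and the study's adjustment 475 and 9. Same-numbered bulk samples did not deviate together in every pair (r = 0.35, 0.17 and −0.03), and with the replicate block 1 gene was called, the member Serping1 (FDR = 0.00302). No paired analysis was possible because the groups of nuclei share fewer than 2 numbers. Sums of transcripts were not run, since no table pairs all transcripts with genes. Leaving out rats gave 0 to 58 called genes in all nuclei, 0 to 9 in microglia-like, 0 to 8 in astrocyte-like, 0 to 15 in oligodendrocyte-like, 0 to 12 in precursor-like, 0 to 22 in GABAergic-like and 1 to 3 in endothelial-like nuclei. DESeq2 called 1 gene in all nuclei and 105 in astrocyte-like nuclei, and without the filter 15 were called in microglia-like and 361 in astrocyte-like nuclei.

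With each rat left out, Log2FC values that turned sign ranged in all nuclei from −0.74 to 1.12 for C1qa, −0.62 to 1.497 for C1qb, −0.74 to 1.27 for C1qc and −0.33 to 0.69 for C1s. They ranged in microglia-like nuclei from −2.27 to 0.35 for C1qa, −2.26 to 0.87 for C1qb, −2.34 to 0.33 for C1qc, −0.86 to 1.68 for C3 and −2.39 to 0.047 for LOC103689965. They ranged in astrocyte-like nuclei from −1.40 to 0.36 for C1qa, −1.10 to 1.12 for C1qb, −0.91 to 0.44 for C1qc, −0.29 to 0.24 for C1s, −0.24 to 0.033 for LOC103689965 and −0.14 to 2.86 for Serping1. Over all nuclei with at least 1000 UMIs, chosen after seeing the data, C1qa was 0.013 and C1qc 0.10, and C1qc was 0.14 with stored zeros counted as 1. The bulk-nucleus difference ranged from −0.064 to 1.91 for C1qb and −0.20 to 1.78 for C3, and the C1r ratio to microglial markers from −0.20 to 0.38.

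The microglia-like share by marker gate was 26.0% for C1qa, 23.2% for C1qb, 21.7% for C1qc, 42.4% for C2 and 24.2% for C3. With at least 1000 UMIs it was 28.8%, 19.9%, 24.9%, 10.0% and 18.4%, and with stored zeros counted as 1 it was 43.5% for C1qa and 36.8% for C1qc. The causes were not tested. With 2 TBI rats, 1 sham and 1 naïve rat, and 26 C2 and 5 C4a UMIs, the nuclei limit what can be said of these genes.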
